A study of Homo sapiens with 6 samples.

Results

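The NF-kappaB and inflammatory cytokine genes examined here are 38 protein-coding genes chosen by name: the Rel subunits of NF-kappaB, their inhibitors and kinases, receptors and adaptors upstream, and chemokines, cytokines and other genes that the pathway is known to induce. The choice was made with earlier results of these data known. All 38 genes were found among the 58735 genes of the counts table. They were followed in 6 RNA-seq libraries from RPE-1, a human retinal pigment epithelial cell line that here carries GFP on CETN2, a centriole protein, and PLK4, the kinase that starts centriole duplication, under a doxycycline-inducible promoter. In 3 libraries the cells had received an siRNA against SON, a large splicing cofactor that resides in nuclear speckles (siSON), and in 3 a scramble siRNA (siControl). Both groups were transfected with the same lipid reagent and both had PLK4 induced with doxycycline at 1 µg/mL, so neither lipid transfection nor PLK4 induction was varied between them. Untransfected or uninduced cells were not analysed here, and whether replicates were separate cultures is not stated, so p-values measure the spread between these samples, which may be technical. The comparison asks which mRNAs differ in level after loss of SON in cells with PLK4 induced.

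NF-kappaB is a family of dimeric transcription factors built from the Rel proteins RELA, RELB and REL and from p50 and p52, which are cut from the products of NFKB1 and NFKB2. In resting cells IkappaB proteins hold the dimers in the cytoplasm. The IKK complex, made of the kinases CHUK and IKBKB and the scaffold IKBKG, marks IkappaB for destruction after signals from receptors such as the tumour necrosis factor receptor TNFRSF1A, and the freed dimers bind kappaB sites near genes of inflammation. Several of those genes, NFKBIA and TNFAIP3 among them, encode proteins that switch the pathway off again.

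The DNA around these genes' start sites is shown first because the kappaB site is the element that defines the pathway's targets. RefSeq promoter windows (GRCh38.p14) were found for 32 of the 38 genes, and the 250 bases before each start site were searched on both strands for the 10-base kappaB consensus. RefSeq lists more than 1 start for some genes, giving 47 windows. A match was found for 16 of the 32 genes, beside 15.6% of the genes tested in this study and 11.8% of all genes that have a window. The 16 include 3 members that were not tested, CXCL1, CCL20 and VCAM1, so the tested share is not a like comparison for them. By window it was found in 18 of the 47 (38.3%), beside 9.96% of all 35116 windows. Capitals below mark the match, or overlapping matches joined into 1 run, which is a description of the letters, with a lower-case flank of up to 25 bases on each side, read 5′ to 3′ on the gene's strand.
NFKBIA (minus strand, chr14:35404796-35404855): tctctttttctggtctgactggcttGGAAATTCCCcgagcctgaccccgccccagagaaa
BIRC3 (plus strand, chr11:102317260-102317319): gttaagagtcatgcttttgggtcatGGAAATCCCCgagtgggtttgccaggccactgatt
BIRC3 (plus strand, chr11:102317324-102317383): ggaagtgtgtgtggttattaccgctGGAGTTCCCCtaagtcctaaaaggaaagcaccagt
NFKB1 (plus strand, chr4:102501285-102501344): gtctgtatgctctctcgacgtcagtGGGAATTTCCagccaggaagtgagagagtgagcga
NFKBIB (plus strand, chr19:38899916-38899968): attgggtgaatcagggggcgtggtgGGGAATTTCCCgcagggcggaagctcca
NFKBIZ (plus strand, chr3:101827742-101827801): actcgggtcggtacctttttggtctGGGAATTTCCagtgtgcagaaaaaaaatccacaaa
CXCL1 (plus strand, chr4:73869289-73869349): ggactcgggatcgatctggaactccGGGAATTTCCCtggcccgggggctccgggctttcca
These windows were picked because the genes behind them did different things: NFKBIA and BIRC3 fell after SON knockdown, NFKB1 and NFKBIB rose, NFKBIZ did not pass the test and CXCL1 had no reads. The run GGGAATTTCC stood on the gene's strand in the windows of NFKB1, NFKBIB, NFKBIZ and CXCL1, and also in those of CXCL2, which fell, and CXCL3, which did not pass the test. It stood on the other strand in the windows of NFKBIA and of REL, which did not pass either. Among members with a window, a match was found for 7 of the 18 that fell and 3 of the 5 that rose. Of all genes tested that have a window, it was found for 16.6% of those that fell and 15.1% of those that rose. A match was also found for 3 of the 6 tested members that did not pass the test and for all 3 not tested. A site outside the 250 bases, or one that departs from the consensus, would not be found by this search.

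Of the 38 genes, 35 were counted often enough to be tested and 28 of these passed, meaning a Benjamini-Hochberg adjusted p under 0.05 in the edgeR quasi-likelihood fit, with 7 up and 21 down in siSON. Among all 16591 genes tested, 71.7% passed, 35.2% higher and 36.5% lower (5834 and 6054 genes; 4441 and 7351 when scaled by library size alone), so the share of members that passed (80%) was near the background. At least a 2-fold difference was called for 4 members higher and 15 lower, beside 8.72% and 20.5% of all genes. The median log2 fold change of the tested members was -0.68, beside -0.03 for all genes tested. That median moved with the libraries used, to -0.52 without siControl replicate 1 and also -0.52 without siSON replicate 2. The groups did not overlap for 28 of the 35, beside 75.1% of all genes. The 3 members left untested were barely counted. CXCL1, a neutrophil chemokine, had 0 counts in every library, which allows up to 3 counts, or 0.0402 to 0.059 CPM (counts scaled to a common library total with TMM factors). CCL20, a lymphocyte chemokine, had 6 counts in siControl replicate 1 and 0 in the other libraries. VCAM1, an adhesion molecule of activated endothelium, had 1 count in siControl replicate 3 and 1 in siSON replicate 3.

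**Figure D1:**
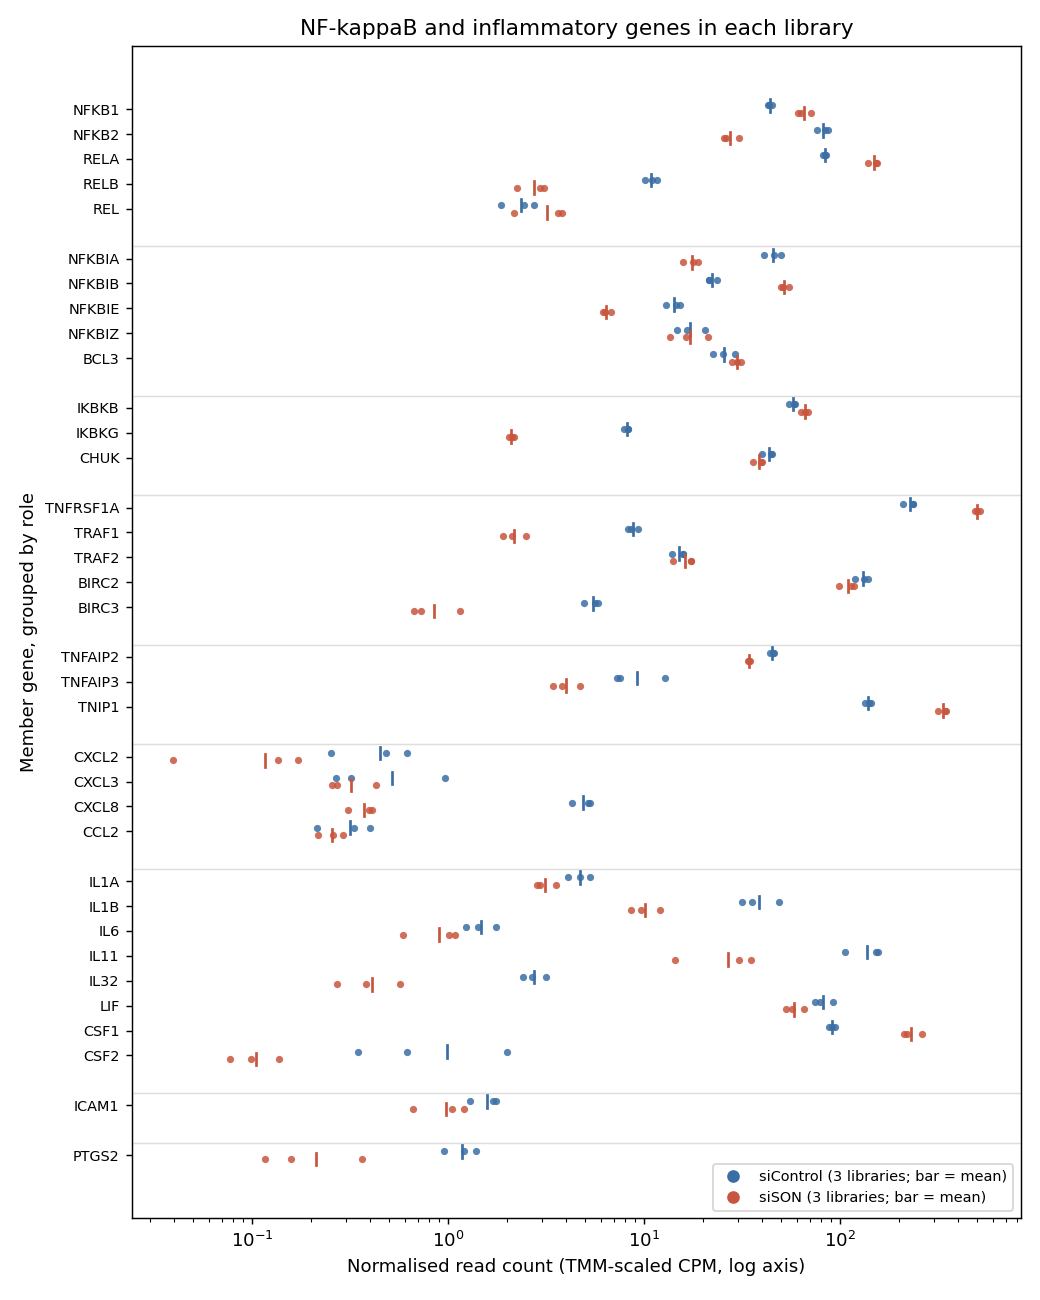
TMM-scaled CPM (log axis) of the 35 tested member genes in each of the 3 siControl and 3 siSON libraries, with short bars at the group means, ordered by role. CXCL8, IL11, BIRC3 and IL32 sit well to the left in siSON, while TNFRSF1A, TNIP1 and CSF1 sit to the right, and the groups overlap for genes such as NFKBIZ and CCL2.

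The knocked-down gene SON was first checked. Its control libraries read 295, 313 and 284 CPM and its siSON libraries 67.96, 69.96 and 64.998 CPM, in replicate order, a log2 fold change of -2.14 (adjusted p 6.78e-10, SE 0.06). Library totals ran from 54572365 to 69764836 counts. Scaling by library size alone in place of TMM moved the log2 fold changes of all genes by a median of -0.20, and cyclic loess normalization moved them by a median of 0.14, so small differences are read relative to those shifts. The line was checked against marker genes. Keratins KRT8 and KRT18 were high (means of 594 and 220.4 CPM in siControl, 754 and 615 CPM in siSON), while the epithelial markers KRT19, CDH1 and EPCAM had means of at most 0.158 CPM. The mesenchymal marker VIM was high in both groups (7154 and 6488 CPM, adjusted p 0.0521), and COL1A1, PDGFRB, COL1A2 and THY1 fell, with log2 fold changes of -1.85, -0.87, -0.71 and -0.57. Of the pigment epithelial markers OTX2, MITF and BEST1 rose (0.82, 0.52 and 0.62), PMEL fell to 9.71% of the control mean (-3.36), RPE65 and RLBP1 were at most 0.258 CPM and TYR was at 0. Of 7 leukocyte markers, CD3E was at 0 in all libraries, CD14, CD68 and ITGAM were at most 0.465 CPM, and PTPRC (means of 1.44 and 0.292 CPM, adjusted p 4.39e-05) and LYZ (0.675 and 0.136 CPM, adjusted p 0.000123) fell. The summed leukocyte level was 2.20 to 2.88 CPM in siControl and 0.758 to 1.02 CPM in siSON, and that of 3 endothelial markers 1.19 to 1.39 and 0.393 to 0.913 CPM. Both sums, and the mesenchymal genes that fell, moved with the groups, as many of the inflammatory genes below did. Other marker sums moved the opposite way. The epithelial sum was 764.5 to 863.8 CPM in siControl and 1331 to 1393 CPM in siSON. The pigment epithelial sum was 51.03 to 52.79 CPM in siControl and 73.93 to 83.31 CPM in siSON. The part of other cells or cell states in the results was not tested, and in bulk RNA fewer cells of a type and less RNA per cell cannot be told apart. One control library leaned toward higher inflammatory values: siControl replicate 1 was the highest of the controls for 12 of the 17 tested inducible members (feedback genes, chemokines, cytokines, ICAM1 and PTGS2), or 70.6%, beside 37.9% of all genes tested. Of the siSON libraries, replicate 1 was the highest for 9 of these 17 (52.9%, beside 38.8% of all genes). Without siControl replicate 1 the members called were again 28 in number, 7 higher and 21 lower, but with IL6 no longer called and CHUK called.

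The Rel subunits split. NFKB1 and RELA, which form the classical p50 and RELA dimer, rose, and NFKB2 and RELB, which form the dimer of the non-canonical branch, fell. RELA (chromosome 11, 65653596 to 65663094, minus strand) had 85.002, 83.7 and 81.3 CPM in siControl and 152, 139 and 153 CPM in siSON, replicates 1 to 3 in each case and throughout what follows. Every siSON library was above every control, and the log2 fold change was 0.83 (adjusted p 1.89e-07, SE 0.06). NFKB1 (chromosome 4, 102501329 to 102617302, plus strand), the gene of p105 and p50, had 44.97, 43.1 and 42.9 CPM in siControl and 71.2, 60.9 and 63.4 CPM in siSON. Its groups were also apart, with a log2 fold change of 0.58 (adjusted p 1.75e-05, SE 0.07).

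NFKB2 (chromosome 10, 102394110 to 102402529, plus strand), the gene of p100 and p52, moved the other way, with 76.1, 86.5 and 83.7 CPM in siControl and 26.2, 30.6 and 25.5 CPM in siSON. About 33.4% of the control mean was left (log2 fold change -1.58, adjusted p 2.67e-08, SE 0.08). RELB (chromosome 19, 45001430 to 45038198, plus strand), the partner of p52, went from 10.05, 10.9 and 11.7 CPM to 2.24, 2.93 and 3.07 CPM. The groups lay far apart, -1.99 on the log2 scale (adjusted p 1.92e-07, SE 0.14). REL (chromosome 2, 60881521 to 60931610, plus strand), the subunit best known from lymphocytes, was the rarest, with 2.44, 2.74 and 1.86 CPM in siControl and 2.17, 3.80 and 3.64 CPM in siSON. Its groups overlapped at siSON replicate 1, and the log2 fold change of 0.45 (SE 0.23) did not pass (adjusted p 0.0983); it passed without that library (0.68, adjusted p 0.00589), under cyclic loess (0.78, adjusted p 0.0106) and with no filter on low counts (0.45, adjusted p 0.0341).

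Per kb of exon the order of the subunits differed between the groups. In siControl NFKB2 stood first at 18.3 ± 1.20 CPM per kb (SD, n = 3), followed by RELA at 15.2 ± 0.343, NFKB1 at 6.98 ± 0.184, RELB at 3.59 ± 0.268 and REL at 0.178 ± 0.0338 CPM per kb. In siSON RELA stood first at 27.1 ± 1.47 CPM per kb (SD, n = 3), then NFKB1 at 10.4 ± 0.855, NFKB2 at 6.12 ± 0.621, RELB at 0.905 ± 0.146 and REL at 0.243 ± 0.0682 CPM per kb. NFKB2 was thus above NFKB1 in the controls and below it in siSON, in means whose SDs do not meet. The order of NFKB2 and RELA in siControl depends on the exon length used, 4484 and 5464 bases. Their mean CPM in siControl were 82.1 and 83.3, and their longest transcripts have 3416 and 3183 bases.

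**Figure D2:**
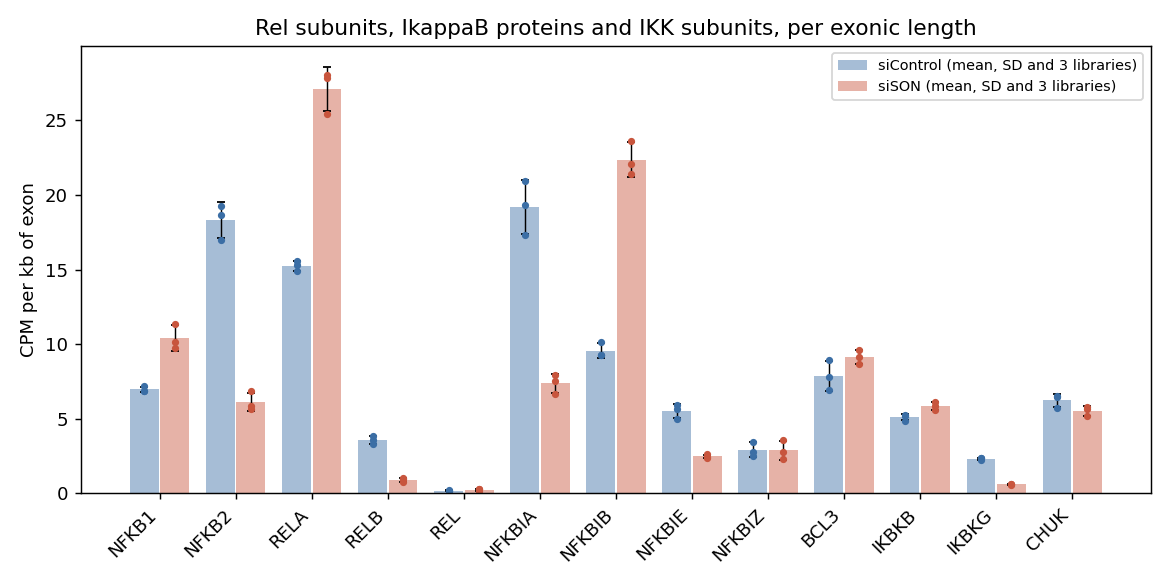
CPM per kb of exon for the 5 Rel subunits, the 5 IkappaB proteins and the 3 IKK subunits; bars are means of 3 libraries, error bars are SDs and points are libraries. RELA and NFKBIB are the tallest in siSON at 27.1 and 22.4 CPM per kb, and NFKBIA and NFKB2 are the tallest in siControl at 19.2 and 18.3.

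The IkappaB proteins split as well, with NFKBIB higher, NFKBIA and NFKBIE lower, and NFKBIZ and BCL3 not past the test. NFKBIA (chromosome 14, 35401511 to 35404749, minus strand), IkappaB alpha, which NF-kappaB is known to induce, had 49.6, 45.8 and 41.02 CPM in siControl and 15.9, 17.8 and 18.8 CPM in siSON. All siSON libraries were below all controls (log2 fold change -1.38, adjusted p 1.52e-07, SE 0.09). NFKBIE (chromosome 6, 44258166 to 44265788, minus strand), IkappaB epsilon, went from 14.5, 12.9 and 15.3 CPM to 6.74, 6.30 and 6.20 CPM. Its groups did not overlap either (-1.15 on the log2 scale, adjusted p 1.21e-06, SE 0.10).

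NFKBIB (chromosome 19, 38899700 to 38908893, plus strand), IkappaB beta, rose from 23.6, 21.5 and 21.5 CPM to 54.9, 49.7 and 51.3 CPM. That is 234% of the control mean (log2 fold change 1.22, adjusted p 5.49e-08, SE 0.07). NFKBIB overlaps SIRT2, a deacetylase gene on the other strand, which had a log2 fold change of -2.07 (adjusted p 5.80e-09), opposite in sign; since the strand setting of the counts is not given in the sources used here, reads of the shared stretch cannot be assigned with certainty. The nuclear proteins NFKBIZ and BCL3, which modulate NF-kappaB on DNA, overlapped between groups. NFKBIZ (chromosome 3, 101827991 to 101861022, plus strand) had 20.5, 16.5 and 14.6 CPM in siControl and 21.2, 16.4 and 13.5 CPM in siSON, a log2 fold change of -0.01 (adjusted p 0.961, SE 0.17). BCL3 (chromosome 19, 44747705 to 44760044, plus strand) had 22.5, 28.9 and 25.3 CPM in siControl and 29.6, 28.1 and 31.1 CPM in siSON, a log2 fold change of 0.21 (adjusted p 0.0631, SE 0.09). Its siControl replicate 2 was the one control inside the siSON range, and without it BCL3 passed (0.29, adjusted p 0.0226), as it did with no filter on low counts (0.22, adjusted p 0.0278).

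Of the IKK complex, the scaffold fell and the kinases differed little. IKBKG (chromosome X, 154541199 to 154565046, plus strand), also called NEMO, had 8.30, 8.24 and 7.88 CPM in siControl and 2.03, 2.11 and 2.16 CPM in siSON. The values were tight within each group and 25.8% of the control mean was left (log2 fold change -1.95, adjusted p 6.61e-08, SE 0.12). IKBKG has a near-identical pseudogene, IKBKGP1, with 9 counts in all libraries together, so its level is uncertain. IKBKB (chromosome 8, 42271302 to 42332653, plus strand), the kinase of the classical branch, had 58.9, 54.9 and 58.2 CPM in siControl and 65.9, 68.6 and 62.9 CPM in siSON, and passed with a log2 fold change of 0.20 (adjusted p 0.0112, SE 0.06). It no longer passed when libraries were scaled by total counts only (0.0026, adjusted p 0.971), under cyclic loess normalization (0.03, adjusted p 0.699), with a mean count of at least 50 (0.14, adjusted p 0.051) and without siControl replicate 2 (0.15, adjusted p 0.0988). CHUK (chromosome 10, 100188298 to 100229619, minus strand), the kinase of the non-canonical branch, had 39.7, 45.05 and 44.6 CPM in siControl and 35.8, 39.9 and 39.3 CPM in siSON, with groups that met at the edge and a log2 fold change of -0.17 (adjusted p 0.0582, SE 0.07). It passed under library size alone (-0.37, adjusted p 0.0016), cyclic loess (-0.27, adjusted p 0.006), the mean count filter (-0.23, adjusted p 0.0147) and without siControl replicate 1 (-0.25, adjusted p 0.0105). CHUK overlaps ERLIN1 on its own strand, which was counted more often, with means of 156 and 158 CPM in siControl and siSON (0.02, adjusted p 0.817).

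Upstream of IKK, the receptor TNFRSF1A rose, the adaptor TRAF1 and the ubiquitin ligases BIRC2 and BIRC3 fell, and the adaptor TRAF2 did not pass the test. TNFRSF1A (chromosome 12, 6328757 to 6342114, minus strand), the main receptor for tumour necrosis factor on most cells, was the most abundant member per kb of exon in both groups (56.4 ± 3.65 and 125 ± 4.11 CPM per kb), with 209, 234 and 234 CPM in siControl and 485, 501 and 518 CPM in siSON. It was above the control range in every siSON library (log2 fold change 1.15, adjusted p 1.89e-08, SE 0.06). TRAF1 (chromosome 9, 120902393 to 120929173, minus strand), an adaptor that NF-kappaB induces, went from 8.61, 8.27 and 9.33 CPM to 1.91, 2.48 and 2.12 CPM (-2.01 on the log2 scale, adjusted p 1.43e-07, SE 0.13). TRAF2 (chromosome 9, 136881912 to 136926607, plus strand), the adaptor that brings the ubiquitin ligases BIRC2 and BIRC3 to the receptor, had 13.9, 15.7 and 15.8 CPM in siControl and 14.01, 17.3 and 17.4 CPM in siSON, overlapping groups with a log2 fold change of 0.10 (adjusted p 0.403, SE 0.10).

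BIRC2 and BIRC3, the cellular inhibitors of apoptosis, are paralogs that lie 7807 bases apart on chromosome 11. BIRC3 (102317450 to 102339403, plus strand), the NF-kappaB-induced member of the pair, dropped from 5.79, 5.62 and 4.95 CPM to 0.672, 1.14 and 0.728 CPM, a clear gap between the groups (log2 fold change -2.69, adjusted p 3.56e-07, SE 0.20). BIRC2 (102347211 to 102378670, plus strand), which is made constitutively, had 119, 139 and 133 CPM in siControl and 98.3, 118 and 114 CPM in siSON. Those ranges nearly touched; the log2 fold change of -0.24 (adjusted p 0.0171, SE 0.08) did not pass without siControl replicate 2 (-0.21, adjusted p 0.0637) or without siSON replicate 1 (-0.16, adjusted p 0.0575). The difference between the paralogs' changes was not tested.

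The 3 inducible feedback and markers of the pathway all passed, in both directions. TNIP1 (chromosome 5, 151029945 to 151093577, minus strand), a ubiquitin-binding inhibitor that works with TNFAIP3, rose from 141, 134 and 144 CPM to 341, 317 and 347 CPM (log2 fold change 1.26, adjusted p 8.13e-09, SE 0.05). TNFAIP3 (chromosome 6, 137867188 to 137883312, plus strand), the ubiquitin-editing enzyme A20 that ends the signal, went from 12.7, 7.55 and 7.29 CPM to 3.43, 3.82 and 4.68 CPM. Its siControl replicate 1 stood above the other controls, and all controls were above all siSON libraries (log2 fold change -1.21, adjusted p 0.000569, SE 0.22). TNFAIP2 (chromosome 14, 103123442 to 103137439, plus strand), an NF-kappaB target first found in endothelium, went from a mean of 45.1 ± 1.29 to 34.2 ± 0.326 CPM (SDs over n = 3 in each group; log2 fold change -0.40, adjusted p 0.000107).

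**Figure D3:**
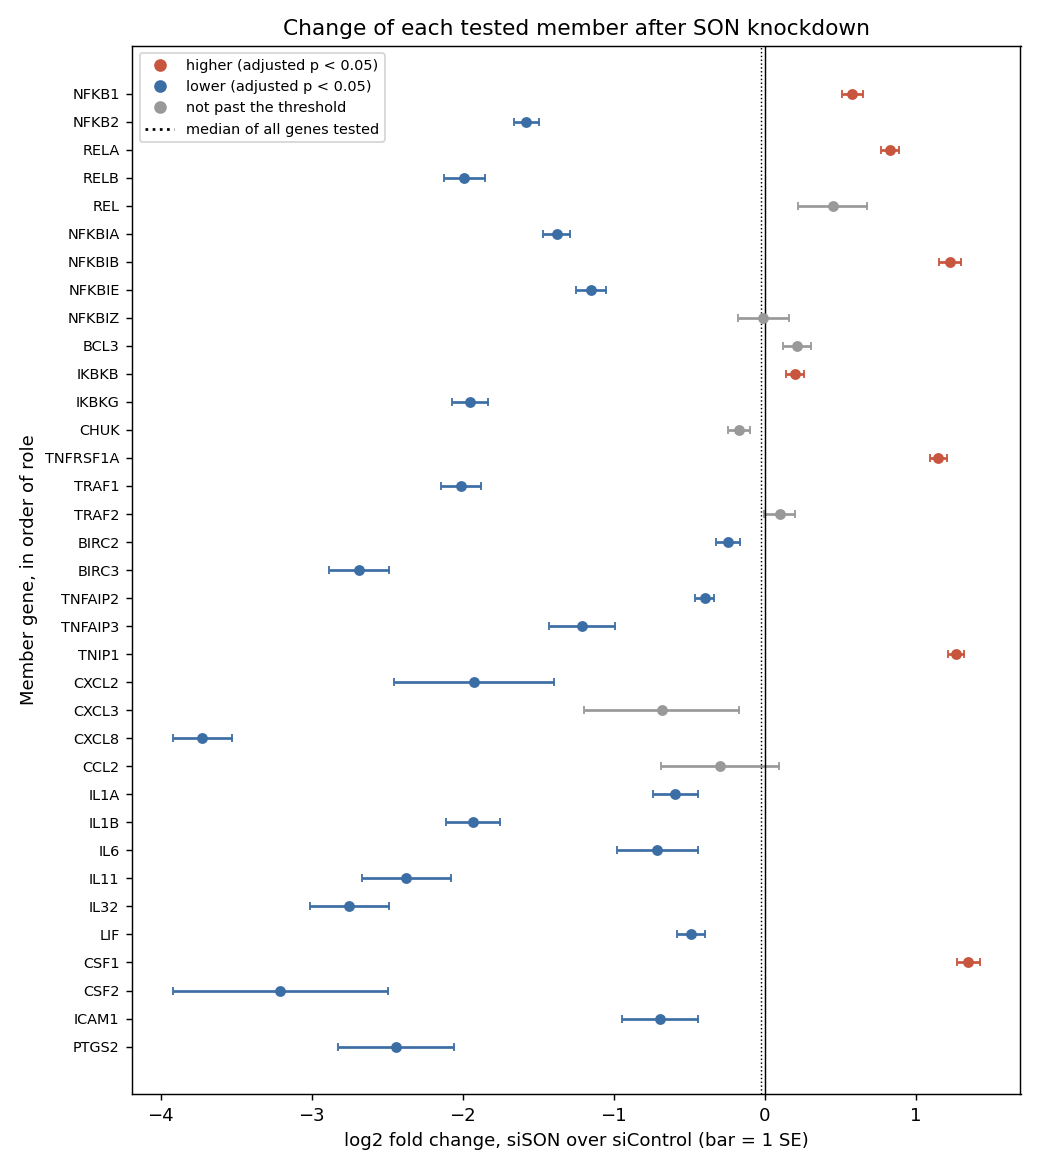
Log2 fold change (siSON over siControl, bars of 1 SE) of the 35 tested members in order of role; colour marks higher, lower or not past an adjusted p of 0.05 in edgeR, and the dotted line is the median of all genes tested (-0.03). The largest drop is that of CXCL8 at -3.73 and the largest rise that of CSF1 at 1.35.

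Among the chemokines CXCL8 carried most of the control reads and fell. CXCL8 (interleukin-8; chromosome 4, 73740506 to 73743716, plus strand), the main neutrophil attractant of human cells, had 368, 327 and 320 counts in siControl and 18, 21 and 20 counts in siSON. In CPM this was 5.27, 5.14 and 4.28 against 0.310, 0.407 and 0.393, so that 7.56% of the control mean was left (log2 fold change -3.73, adjusted p 2.68e-08, SE 0.20). CXCL8, CXCL1, CXCL3 and CXCL2 lie in 1 cluster on chromosome 4, with gaps of 125676, 165346 and 58227 bases between neighbours, and CXCL1, CXCL2 and CXCL3 are close paralogs whose reads can be hard to separate. CXCL2 had 43, 16 and 36 counts in siControl and 10, 7 and 2 counts in siSON, groups that did not overlap (log2 fold change -1.92, adjusted p 0.00695, SE 0.53). Under cyclic loess it was -1.12 (adjusted p 0.0499). CXCL3 had 67, 17 and 24 counts in siControl and 25, 14 and 13 counts in siSON. Its log2 fold change of -0.68 (adjusted p 0.252, SE 0.51) did not pass, rested on siControl replicate 1, and was 0.10 (adjusted p 0.861) without it. CCL2, the monocyte attractant, had 28, 21 and 16 counts in siControl and 15, 15 and 11 counts in siSON, and a difference was not detectable at this depth (log2 fold change -0.30, adjusted p 0.519, SE 0.39).

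All 8 cytokines and growth factors passed, 7 lower and 1 higher, beside 71.7% of all genes passing and 36.5% lower. Under cyclic loess 5 were called lower and 1 higher. The most abundant per kb in the controls was IL11 (chromosome 19, 55364389 to 55370463, minus strand), an interleukin-6 family cytokine of mesenchymal and epithelial cells, at 51.6 ± 10.5 CPM per kb against 9.98 ± 4.05 in siSON. Its libraries had 105, 152 and 156 CPM in siControl and 14.4, 30.6 and 34.96 CPM in siSON. The libraries of each group spread widely, replicate 1 being the lowest in both, and the groups stayed far apart (log2 fold change -2.37, adjusted p 6.50e-05, SE 0.29). IL1B (chromosome 2, 112829751 to 112836903, minus strand), interleukin-1 beta, an early inflammatory cytokine, fell from 48.8, 31.4 and 35.3 CPM to 12.01, 9.60 and 8.58 CPM (-1.93 on the log2 scale, adjusted p 5.96e-06, SE 0.18). Its neighbour IL1A, 45160 bases away and an alarm signal released from damaged cells, went from 4.70 ± 0.604 to 3.10 ± 0.375 CPM (SDs over n = 3 in each group; log2 fold change -0.59, adjusted p 0.00404). The IL1A call was lost under cyclic loess normalization (-0.25, adjusted p 0.149).

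CSF1 (chromosome 1, 109910242 to 109930992, plus strand), the macrophage growth factor, was the cytokine that rose, with 87.3, 94.01 and 90.8 CPM in siControl and 262, 212 and 218 CPM in siSON. Every siSON library was above every control (log2 fold change 1.35, adjusted p 5.19e-08, SE 0.08). LIF (chromosome 22, 30240447 to 30246851, minus strand), a further interleukin-6 family cytokine, fell from 92.1, 79.2 and 74.4 CPM to 65.4, 53.1 and 56.5 CPM (log2 fold change -0.49, adjusted p 0.000696, SE 0.09). It shares its span with LIF-AS1 and AC004264.1 on the other strand, the latter at 1.03 and 0.0958 CPM.

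The remaining cytokines were rare. IL32 (chromosome 16, 3065297 to 3082192, plus strand), which is induced in many inflamed tissues, had 3.15, 2.67 and 2.41 CPM in siControl and 0.379, 0.271 and 0.571 CPM in siSON, with 14.8% of the control mean left (log2 fold change -2.75, adjusted p 2.48e-06, SE 0.26). CSF2, the granulocyte and macrophage growth factor, had 140, 22 and 46 counts in siControl and 8, 4 and 5 counts in siSON. Its fold depended on siControl replicate 1, being -3.21 (adjusted p 0.00212, SE 0.71) with it and -2.20 (adjusted p 0.00295) without it, and it was -1.97 (adjusted p 0.00681) under cyclic loess. IL6, the cytokine of the acute phase, had 123, 78 and 106 counts in siControl and 63, 52 and 30 counts in siSON. It passed narrowly (log2 fold change -0.71, adjusted p 0.0316, SE 0.27) and not without siControl replicate 1 (-0.59, adjusted p 0.1001), siControl replicate 3 (-0.74, adjusted p 0.0547) or siSON replicate 3 (-0.48, adjusted p 0.115), nor under cyclic loess (-0.31, adjusted p 0.288). IL6 (means of 1.47 and 0.895 CPM in siControl and siSON) overlaps STEAP1B on the other strand. STEAP1B was counted more often, with 16.5 and 21.1 CPM, and rose (0.36, adjusted p 0.00121).

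PTGS2 (chromosome 1, 186671791 to 186680427, minus strand), the inducible cyclooxygenase that makes prostaglandins, had 97, 77 and 71 counts in siControl and 21, 6 and 8 counts in siSON. Every siSON library was below every control (log2 fold change -2.44, adjusted p 0.000152, SE 0.38), and the value was -3.08 without siSON replicate 1, the highest of its group. ICAM1, an adhesion receptor for leukocytes, had 90, 111 and 126 counts in siControl and 61, 34 and 61 counts in siSON. It passed with a log2 fold change of -0.70 (adjusted p 0.0283, SE 0.25) but not without siControl replicate 2 (-0.64, adjusted p 0.0822), siControl replicate 3 (-0.65, adjusted p 0.0747) or siSON replicate 2 (-0.47, adjusted p 0.106), nor under cyclic loess (-0.30, adjusted p 0.317).

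Gene structure was compared as a description, using the longest GENCODE transcript of each gene. The 21 members that fell had a median span of 8420 bases, a median GC content of 53.1% and a median intron of 758 bases. The 7 that rose had 20360 bases, 57.5% and 1383 bases. Among all genes tested, those that fell had 14569 bases, 51.9% and 1339 bases, and those that rose had 31001 bases, 46.9% and 2148 bases. By median span, members that fell were therefore shorter than members that rose, as were all genes that fell beside all that rose. Spans of single members overlapped: RELB fell with 36765 bases, and RELA rose with 9295 bases. The longest transcript can cover only part of a gene, as for IL32, where it spans 3027 bases. The order of median GC differed, being higher in the members that rose and lower in all genes that rose.

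The wider pathway was read from a second list of 106 genes (107 rows of the table, SOD2 having 2 identifiers). Of these rows, 87 were tested and 72 passed, 46 higher and 26 lower (82.8%, beside 71.7% of all genes), with a median log2 fold change of 0.19. Under library size alone 31 were higher and 34 lower. The list was written with earlier results of these data known, and the counts by role were added after the data were seen, so they only describe this list. By role these are read beside the 35.2% of all genes that were higher and the 36.5% that were lower. Adaptors and upstream kinases split, with 15 of 27 higher and 9 lower, and 10 each under library size alone. Receptors, nuclear regulators and ubiquitin enzymes had 8 of 11, 8 of 10 and 8 of 12 tested called higher and 1 of each called lower; under library size alone these were 5, 6 and 5 higher with 3, 1 and 2 lower. The other inducible targets were more often lower, with 14 of 27 called lower and 7 higher, and a median of -0.28, and 18 lower and 5 higher under library size alone. Tumour necrosis factor itself (TNF) had 0 counts in every library.

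TRADD, the adaptor that links TNFRSF1A to the kinase RIPK1, fell more than any other named gene of either list, with 19.7, 19.7 and 20.1 CPM in siControl and 1.10, 0.892 and 1.06 CPM in siSON (log2 fold change -4.28, adjusted p 6.78e-10, SE 0.11). It overlaps FBXL8 on the other strand, which also fell (-1.81, adjusted p 3.85e-05). RIPK1, its partner, rose from 29.3 ± 1.29 to 61.9 ± 3.11 CPM (SDs over n = 3 in each group; log2 fold change 1.08, adjusted p 8.22e-08). CARD10, a scaffold that feeds signals to BCL10 and MALT1, fell from 40.2 ± 1.91 to 18.5 ± 0.273 CPM (-1.12 on the log2 scale, adjusted p 8.22e-08). SHARPIN, a subunit of the linear ubiquitin ligase that modifies IKBKG, had 42.4, 40.4 and 39.5 CPM in siControl and 3.81, 5.08 and 5.10 CPM in siSON, far below every control (log2 fold change -3.13, adjusted p 2.59e-09, SE 0.11). It overlaps MAF1 (0.20, adjusted p 0.00499) and the rare WDR97, which fell from a mean of 0.504 CPM (adjusted p 2.06e-05), on the other strand.

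BTRC and FBXW11, the F-box proteins that recognise phosphorylated IkappaB, rose, BTRC by 1.42 on the log2 scale (adjusted p 1.64e-08) and FBXW11 by 0.57 (adjusted p 2.56e-06). Of the receptors, TLR4, which senses bacterial lipopolysaccharide, rose from 47.5 ± 1.85 to 120.3 ± 2.58 CPM (log2 fold change 1.34, adjusted p 5.83e-09). IL6ST, the shared signal chain for IL6, IL11 and LIF, rose from 212 ± 11.2 to 453 ± 16.8 CPM (1.10, adjusted p 1.86e-08), and LTBR, a receptor of the non-canonical branch, fell from 143 ± 0.218 to 82.8 ± 1.92 CPM (-0.79, adjusted p 9.32e-08), SDs over n = 3 each. The co-activator CREBBP and the nuclear protein NFRKB rose: CREBBP by 1.13 (adjusted p 5.02e-08) and NFRKB by 1.05 (adjusted p 1.25e-07) on the log2 scale. Among further targets PLAU, the urokinase protease, ATF3, a stress transcription factor, and the complement gene C3 fell, the log2 differences being -1.09 for PLAU (adjusted p 1.64e-08), -1.27 for ATF3 (adjusted p 3.62e-07) and -2.52 for C3 (adjusted p 3.89e-07). C3 overlaps GPR108 on its own strand, which also fell (-1.02, adjusted p 1.90e-06).

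**Figure D4:**
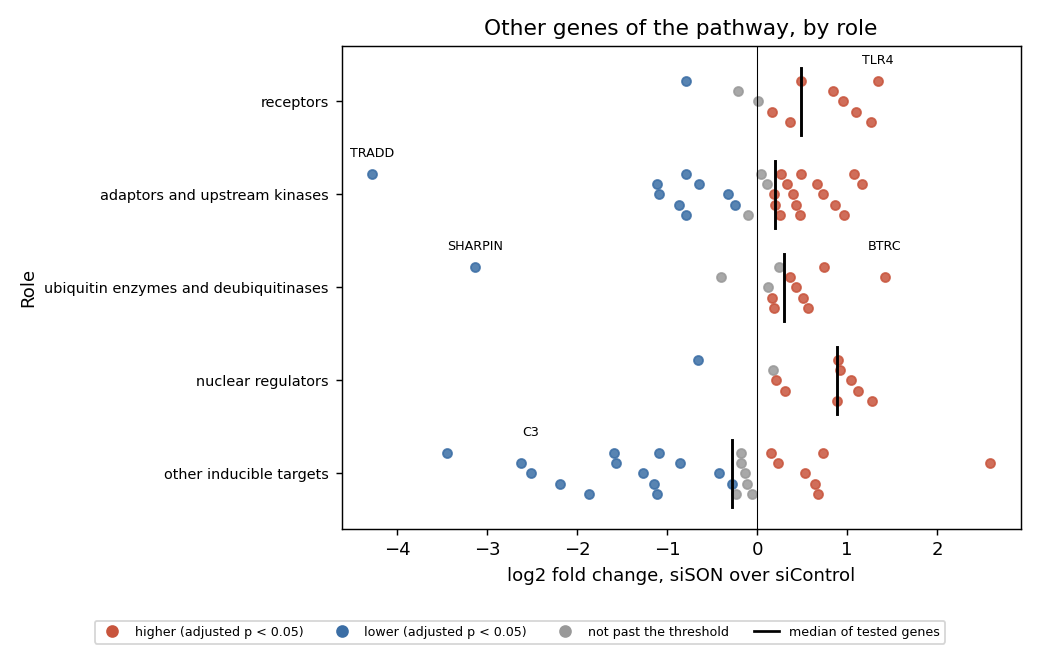
Log2 fold change (siSON over siControl) of the 87 tested rows of the second pathway list, by role; each point is a gene, colour marks its call and black bars are medians. TRADD at -4.28 and SHARPIN at -3.13 lie far left of their groups, and the bar of the other inducible targets lies at -0.28, below 0.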

How the data were processed

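Messenger RNA was measured in 6 samples, with an mRNA-seq kit per the labels' protocols, grouped by the siRNA named in their titles. The values the authors deposited are raw counts: whole numbers of reads for each gene in each library. The submitters' processing notes list cutadapt 1.16, STAR 2.5.2a, featureCounts 1.6.2, DESeq2 1.28.1 and build hg38; the annotation, the strand setting and the handling of multi-mapping reads are not given in the sources used here. All 58735 gene identifiers are in GENCODE release 29 of GRCh38, which gave positions and lengths.

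From the counts, edgeR 4.0.16 (R 4.3.3) tested siSON against siControl: filterByExpr with a minimum count of 10, TMM scaling, a robust quasi-likelihood fit on group alone, and Benjamini-Hochberg adjustment over all 16591 genes tested, called at an adjusted p of 0.05. The script was tested on simulated data. CPM used TMM-scaled library sizes, and CPM per kb divided them by the union of exons. The SE is the log2 fold change divided by the root of F. A count of 0 allows up to 3 counts, 0.0402 to 0.059 CPM by library, for counting error only.

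The members and lists were chosen with earlier results of these data known. Values in every library were given for Rel, IkappaB and IKK genes and for other members called with a log2 fold change of at least 1 or a mean of at least 50 CPM, and of the second list each role named its called genes of smallest adjusted p, at most 3; a gene this rule names among the nuclear regulators is not reported here. Alternatives were RLE factors, library size alone, cyclic loess with limma 3.58.1, DESeq2 1.42.0, limma-voom, no filter, a mean count of at least 50, a replicate block, and each library left out. The same alternatives for the second list's named genes, and the counts by role, were added after the data were seen.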

Additional observations from a re-analysis of the deposited data

How the results depend on the processing

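The number of members called (28) ranged from 25 to 30 over all alternatives, or 26 to 28 when a library was left out; the second list's 72 ranged from 65 to 78, and all genes' 11888 from 10226 to 12604. The replicate numbers are shared by both groups, and what they mark is not stated. Same-numbered libraries deviated together weakly (correlations across genes of 0.194, 0.0461 and 0.118, mean 0.119), beside a mean of -0.0595 for libraries of different number. They were not taken as pairs in the main fit. With the replicate block 30 members were called, 8 higher and 22 lower. BCL3 (0.22, adjusted p 0.0335) and CHUK (-0.17, adjusted p 0.0148) were added, and SON stayed at -2.14. The members' median log2 fold change (-0.68) was -0.88 under library size alone, -0.49 under cyclic loess, and between -0.746 and -0.52 when one library was left out. The sign turned, none of these passing the test, for NFKBIZ (0.073 under cyclic loess; between -0.18 and 0.14 with a library left out: 0.11 without siControl replicate 1, 0.03 without siSON replicate 2, 0.14 without siSON replicate 3), TRAF2 (-0.10 under library size alone), CXCL3 (0.0962 under cyclic loess; between -0.999 and 0.096 with a library left out, the latter without siControl replicate 1) and CCL2 (0.35 under cyclic loess). Of the other values of single members under an alternative, 451 kept direction and side of the threshold, 15 lost and 11 gained the call. All 210 values of the second list's named genes kept both. Depth limits the rarely counted members, CCL2 and CXCL2 among them.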

Other observations

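Within the second list's inducible targets, MMP3, a matrix protease, stood apart from the genes that fell; it was chosen after its values were seen. It had 0.287, 0.377 and 0.388 CPM in siControl and 2.07, 2.02 and 2.26 CPM in siSON, a log2 fold change of 2.59 (adjusted p 1.45e-06, SE 0.23). MMP1, another matrix protease, had 0.602, 0.267 and 0.134 CPM against 0.379, 0.252 and 0.275 CPM and did not pass (adjusted p 0.828). MMP9 fell from 0.603 ± 0.399 to 0.132 ± 0.0272 CPM (SDs over n = 3 in each group; log2 fold change -2.19, adjusted p 0.00521). The 3 proteases were all counted at low levels in the controls.

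PTX3, a secreted pattern-recognition protein, and F3, the coagulation starter tissue factor, were also chosen after their values were seen. Both were highest in siControl replicate 1 among the controls, with 24.7, 12.9 and 11.8 CPM for PTX3 and 439.6, 299 and 299 CPM for F3 in siControl replicates 1 to 3. In siSON PTX3 had 7.22, 7.93 and 7.20 CPM (log2 fold change -1.14, adjusted p 0.00324), and F3 had 341, 319 and 298 CPM and did not pass (adjusted p 0.485).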
